A study of Mus musculus with 16 samples.

Results

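The genes described here encode the matrix metalloproteinases (MMP), their tissue inhibitors (TIMP), the ADAMTS proteases and the lysyl oxidases. They were taken by symbol: Mmp, Timp or Adamts followed by a number, and Lox with its 4 Loxl relatives. The rule found 50 genes, 48 of the 24722 rows of the glomerular table and 48 of the 34264 rows of the cortex table, with 46 in both. By family these were 22 MMP, 4 TIMP, 19 ADAMTS and 5 lysyl oxidase genes. After low counts were removed, 39 could be tested in glomeruli and 36 in cortex, and 42 were tested in the model that joined both tissues. Bulk RNA was sequenced from isolated glomeruli and from renal cortex of wild-type (WT) mice. Each tissue had 4 control libraries and 4 libraries of the HFD/STZ-induced diabetic model, which pairs a high-fat diet with streptozotocin, a toxin of insulin-producing cells. All 16 libraries came from mice aged 24 weeks and carried batch label 1. The groups do not separate the diet, the toxin and the diabetes, and the labels do not tie each library to its own animal. The p-values therefore weigh the spread among these libraries, part or all of which could be technical.

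MMPs are zinc proteases that cut collagens, laminins and other matrix proteins, some as secreted proenzymes and some at the cell membrane. TIMPs block them, and TIMP3 also blocks ADAMTS enzymes, which cut proteoglycans of the aggrecan and versican group, trim procollagens or act on fibrillin microfibrils. Lysyl oxidases oxidise lysines in collagen and elastin so that the fibres become crosslinked. In the glomerulus these enzymes act on the basement membrane and the mesangial matrix.

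Library totals ranged from 40001932 to 41876031 counts in control glomeruli, 36339294 to 40696477 in diabetic glomeruli, 57473100 to 69947387 for cortex of controls and 60628981 to 72352656 for cortex of diabetic mice. Control glomerular libraries 3 and 4 differed by a chi-square per gene of 2.39, against 35.0 to 64.4 for the other control pairs, and diabetic libraries 1 and 4 by 5.36, against 50.4 to 74.0. Both pairs were thus far closer than the others, though still further apart than counting noise alone would leave them. The counts of each of these pairs were summed and used as 1 sample, so glomeruli were compared as 3 against 3 (control 1, 2 and 3+4; diabetic 1+4, 2 and 3) and cortex as 4 against 4. Isolated glomeruli carried podocyte markers at a summed 4938 to 6118 CPM in controls, against 458 to 488 CPM in control cortex. CPM are counts per 1e+06 of a library total already adjusted by edgeR's TMM scaling factor, set within each tissue. Summed smooth muscle and renin-cell markers were 18170 to 20553 CPM in control glomeruli and 294 to 392 CPM in control cortex. Fibroblast markers were 6389 to 6568 CPM and 108 to 208 CPM. The part of these markers in differences between tissues was not tested. Summed proximal tubule markers were 155 to 208 CPM in control glomeruli, and 1604, 239 and 767 CPM in diabetic samples 1+4, 2 and 3. Diabetic sample 2 was thus the one closest to the controls in these markers.

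In control glomeruli the lysyl oxidases and the gelatinase Mmp2 were among the most abundant of these transcripts per unit of length. The lysyl oxidase family summed to 1164 ± 142 FPKM (fragments per kilobase of transcript scaled to depth, the authors' values; SD, n = 3), led by Lox at 632 ± 176 FPKM, Loxl2 at 315 ± 55.3 FPKM and Loxl1 at 207 ± 22.6 FPKM. The TIMP family summed to 889.7 ± 174 FPKM, with Timp3 at 474 ± 215 FPKM, Timp2 at 241 ± 16.6 FPKM and Timp1 at 175 ± 60.4 FPKM. The ranges of Lox, Timp3 and Mmp2 (369 to 533 FPKM) overlapped, so their order is not fixed by these samples. The MMP family summed to 665 ± 64.6 FPKM and the ADAMTS family to 214 ± 44.6 FPKM, of which Adamts1 held 117 ± 29.6 FPKM. Control cortex had far lower sums for 3 of the families: 8.07 ± 1.42 FPKM for the lysyl oxidases, 8.50 ± 2.24 for the MMPs and 18.7 ± 3.09 for the ADAMTS genes (n = 4). The TIMP sum in control cortex was 232 ± 48.9 FPKM, and Timp3 made up 94.5% of it.

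Set against control cortex in the joined model, 33 of the 42 tested genes were higher in control glomeruli and 3 were lower (edgeR's quasi-likelihood test, Benjamini-Hochberg adjusted p under 0.05). Of all 16305 joined genes 78.5% were called in this contrast, 38.7% higher and 39.7% lower. The median log2 ratio was 2.58 over these genes and -0.04 over all. Sample values did not overlap for 32 higher and 2 lower genes, 34 in all, where 75.2% of all genes did not overlap, 37.8% higher and 37.4% lower. Lox stood at 9.37 on the log2 scale, Timp1 at 8.33, Mmp2 at 8.21 and Loxl2 at 7.12. The 3 lower genes were Adamts15 (-7.07) and Adamts9 (-1.17), both of the proteoglycan-cutting group, and Timp4 (-5.95), whose call was lost without cortex control 3 (-4.01, adjusted p = 0.0522) or glomerular control 3+4 (-5.17, adjusted p = 0.0564). The glomerular and cortex tables list different sets of genes, and a difference in annotation or counting cannot be told apart from a difference between tissues in this contrast. Timp3 was not called (-0.03, adjusted p = 0.934), and its sign changed with the filter and with the library left out. Mmp10 had 586 counts in control glomeruli and 0 in control cortex, so no fold is given for it. Without control glomerular library 2 the ratios of Mmp9 and Mmp13, called higher with it, were -0.77 and -1.07.

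In diabetic glomeruli most of the abundant transcripts of these families were lower, Lox and Mmp2 among them, while Mmp9 and Mmp10 were higher. Of 39 tested genes 17 fell and 4 rose against control glomeruli (edgeR's quasi-likelihood test, adjusted p under 0.05), where 37.5% of all 15238 tested genes were called, 18.2% lower and 19.4% higher. The median log2 fold change was -0.71 over these genes and 0.01 over all. Lysyl oxidases fell in 4 of 5 cases, ADAMTS genes in 7 of 15, MMPs in 4 of 16 and TIMPs in 2 of 3. Genes that rose were Mmp9, Mmp10, Mmp24 and Loxl4. Sample values of the groups did not overlap for 26 of the 39, 21 lower and 5 higher, where 54.2% of all genes did not overlap, 27.6% lower and 26.6% higher. With library totals in place of TMM scaling the median of all genes moved to 0.20, the share of all calls that were higher went from 51.6% to 72.6%, and 15 of these genes were lower and 4 higher. The count of risen genes was 1 without control 1, control 3+4, diabetic 1+4 or diabetic 2, and 6 without control 2. Over all genes these fits called 2147, 2076, 2183, 2587 and 2573 higher, in that order, against 2950 with every sample. With all 8 glomerular libraries kept separate, 22 of these genes were lower and 5 higher. Calls rose over all genes as well in that fit, with 3843 of 15182 lower and 3943 higher.

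**Figure D1:**
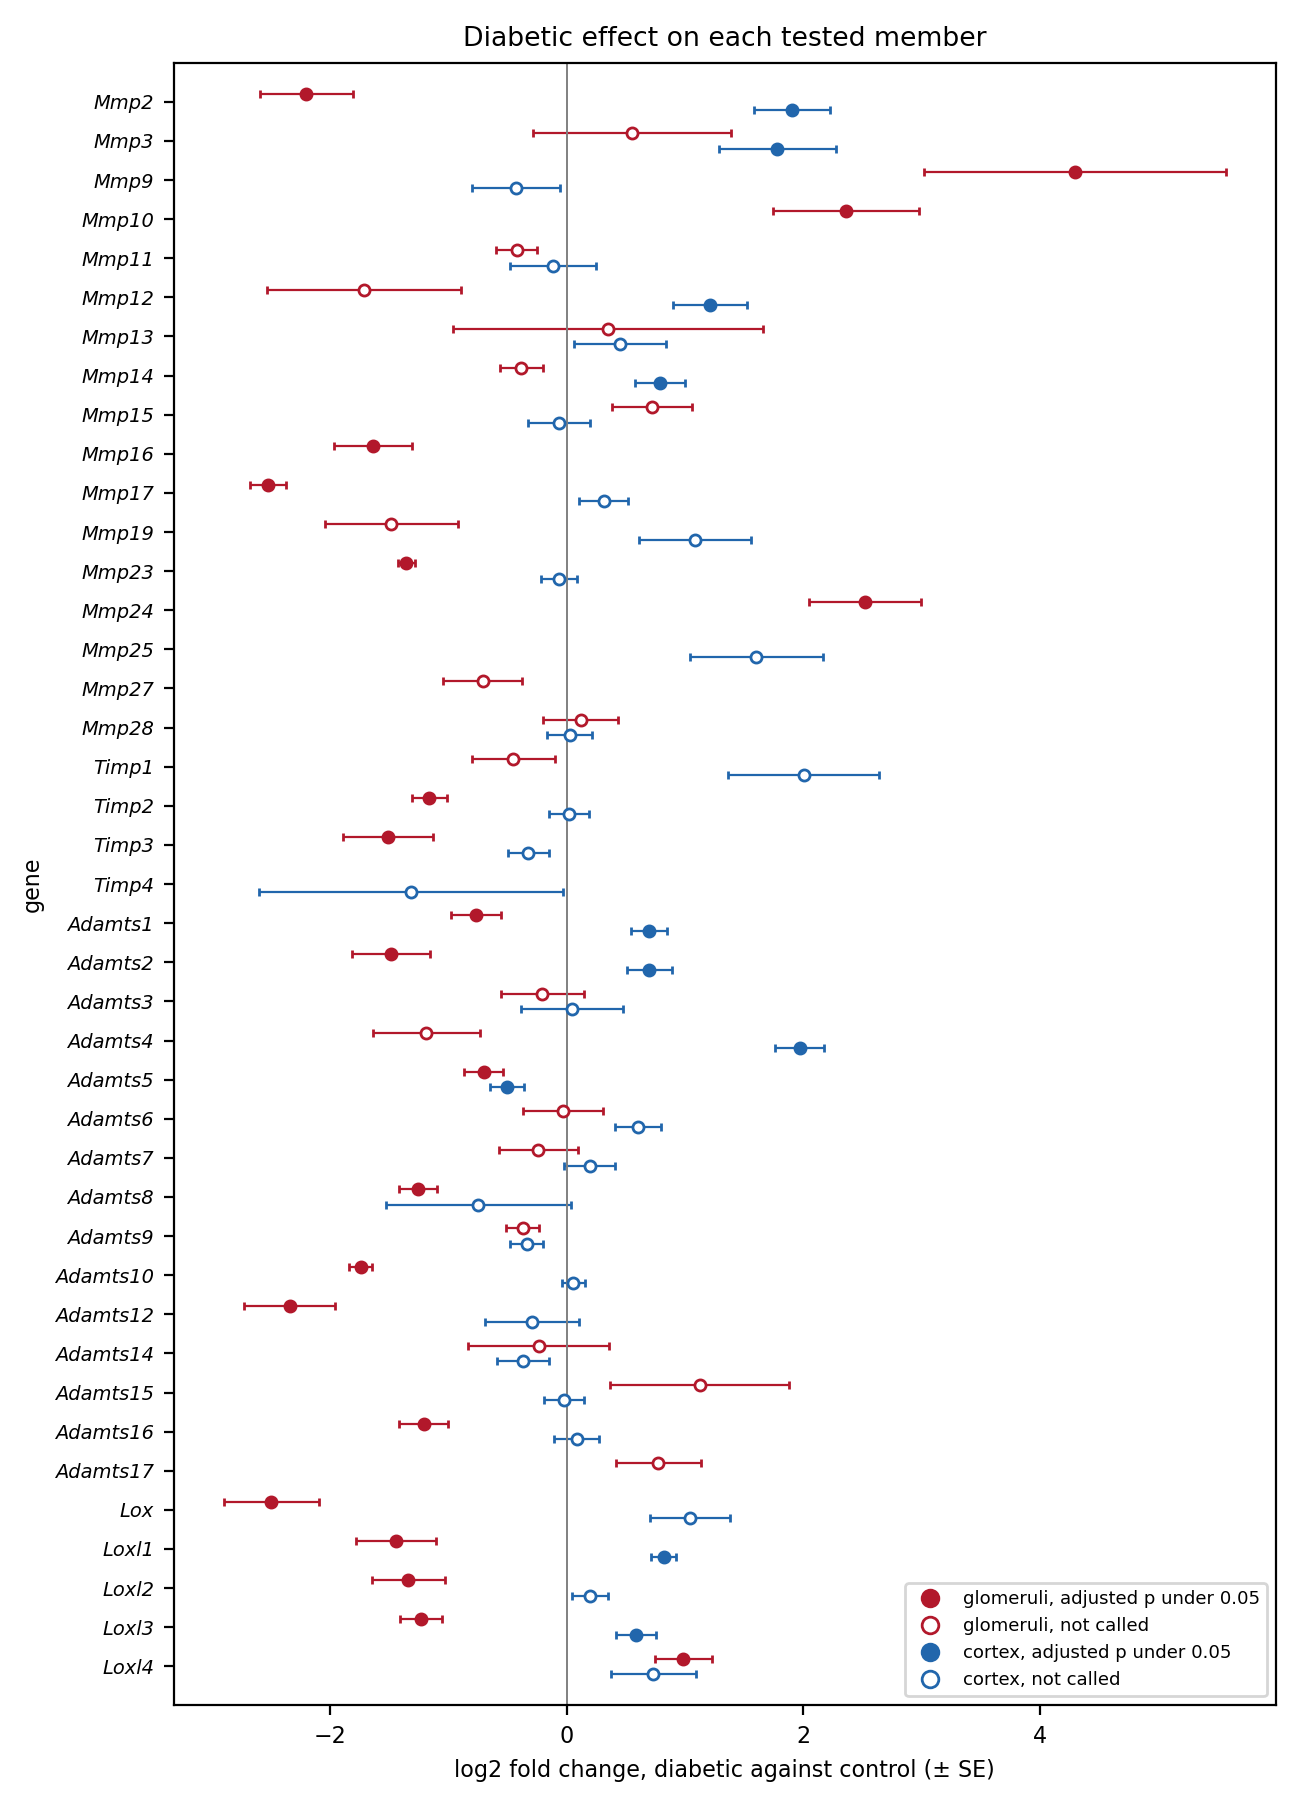
Log2 fold change of diabetic against control (x axis, ± SE) for each tested gene (y axis), in glomeruli (red) and cortex (blue), with filled points for an adjusted p under 0.05. Filled red points lie mostly left of 0 (17 lower, 4 higher) and filled blue points mostly right of it (9 higher, 1 lower).

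Other cell types' markers moved with these falls, and their part in the result was not tested. Summed smooth muscle and renin-cell markers were 18170 to 20553 CPM in controls and 3703 to 6415 CPM in diabetic glomeruli, with 7 of 8 genes lower. Summed fibroblast markers were 6389 to 6568 CPM in controls and 1365 to 4035 CPM in diabetic glomeruli, with 3 of 6 tested genes lower. Summed mesangial markers were 1110.4 to 1257 CPM against 555 to 676 CPM, with 3 of 9 lower and 1 higher, while 0 of 10 endothelial markers were called. Tubule markers moved the other way, with 12 of 16 proximal and 11 of 15 tested distal markers higher, and summed tubular injury markers were 242 to 953 CPM against 5542 to 6382 CPM, with 4 of 7 higher. Podocyte markers were called higher in 1 and lower in 3 of 12 cases, and parietal epithelial markers higher in 3 and lower in 1 of 6. No gene of these lists was at 0 in every sample. In bulk RNA, fewer cells of a type and less RNA per cell cannot be told apart. With diabetic sample 2 as the only diabetic sample, the median log2 fold change was -0.70 over these genes and 0.02 over all. That fit takes its spread from the controls alone and assumes that the lone sample varies like them, and the sample, though lowest in proximal tubule markers, was highest in tubular injury markers (6382 CPM, against 5864 and 5542 CPM). Diabetic sample 2 also lay below all controls in smooth muscle and renin-cell markers (4287 CPM) and in fibroblast markers (1553 CPM). The part of these markers in its median was not tested.

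Cortex showed the opposite balance. Of 36 tested genes 9 rose and 1 fell in diabetic cortex, where 20.1% of all 19228 tested genes were called, 10.8% higher and 9.29% lower. The median log2 fold change was 0.20 over these genes and -0.00 over all. Risen genes were Adamts1, Adamts2, Adamts4, Loxl1, Loxl3, Mmp2, Mmp3, Mmp12 and Mmp14, and the fallen one was Adamts5. Sample values did not overlap for 10 genes, 9 higher and 1 lower, where 24.9% of all genes did not overlap, 13.5% higher and 11.4% lower. The count of risen genes was 4 without control 2, diabetic 2 or diabetic 3. Over all genes those fits called 1674, 1420 and 1448 higher, against 2069 with every library. The fall of Adamts5 held only with all samples or without control 4. Myeloid markers rose in the same samples, 11 of 14 of them, from a summed 218 to 387 CPM to 541 to 833 CPM, and tubular injury markers rose in 6 of 7 cases, from 866 to 1032 CPM to 1420 to 2653 CPM. Fibroblast markers were not called (0 of 8), with summed levels of 108 to 208 CPM in controls and 129 to 215 CPM in diabetic cortex. Proximal tubule markers fell in 9 of 16 cases and red cell markers in 5 of 5 tested, lymphocyte markers rose in 3 of 8, and 0 of 10 endothelial markers were called. The part of these markers in the result was not tested.

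Mmp2, or gelatinase A, cuts denatured collagen and type IV collagen and maps to chr8:92827291-92853420 (GRCm38, plus strand). It had 1866, 1251 and 1748 CPM in control glomeruli 1, 2 and 3+4, against 223, 257 and 579.5 CPM in diabetic glomeruli 1+4, 2 and 3. All 3 diabetic samples lay below all controls, with diabetic 3 the highest of them. The fold change was -2.20 ± 0.39 (SE) on the log2 scale, a 4.59-fold fall (adjusted p = 0.00653). Cortex had 5.21, 2.44, 3.97 and 6.12 CPM in controls 1 to 4, compared with 10.0, 21.2, 21.1 and 14.3 CPM in diabetic samples 1 to 4. Every diabetic cortex sample was above every control, although the levels stayed far below those of glomeruli. The cortex fold change was 1.91 ± 0.32 (SE) (adjusted p = 0.0046), and both calls held with each sample left out. The log2 effect in glomeruli minus that in cortex, called the tissue difference from here on, was -4.10 ± 0.56 (SE) (adjusted p = 0.000178).

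Mmp9, or gelatinase B, is a gelatinase made by neutrophils and macrophages among other cells, at chr2:164940780-164955850 (GRCm38, plus strand). It had 0.645, 14.0 and 0.407 CPM in the 3 control glomerular samples, against 66.5, 74.9 and 145 CPM in the diabetic ones. Control 2 stood far above the other controls yet below every diabetic sample. Its fold change was 4.29 ± 1.28 (SE) (adjusted p = 0.0382). Without control 2 the fold change was 7.56 (adjusted p = 0.000624). The call was lost without any other single sample (control 1, control 3+4, diabetic 1+4, 2 or 3), with adjusted p-values of 0.0691 to 0.0970 and fold changes of 3.69 to 4.52. Cortex levels were below those of diabetic glomeruli, 0.514, 0.777, 1.08 and 0.480 CPM in controls, compared with 0.680, 0.392, 0.626 and 0.421 CPM in diabetic samples. The cortex groups overlapped and the gene was not called there (-0.43 ± 0.37 (SE), adjusted p = 0.464). The tissue difference was 4.74 ± 1.35 (SE) (adjusted p = 0.0163), the only one above 0 among those called. Summed myeloid markers were 434, 749 and 312 CPM in control glomeruli and 316, 242 and 681 CPM in diabetic ones, so that control 2 and diabetic 3, each the highest of its group for Mmp9, were also highest in these markers. Of 13 tested myeloid markers 3 were higher and 1 was lower in diabetic glomeruli, and their part in the result was not tested.

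Membrane-type MMPs are anchored at the cell surface, and Mmp14 among them activates pro-MMP2. Mmp14 had 389, 487 and 392 CPM in control glomeruli, against 261, 307 and 406 CPM in diabetic ones. These ranges overlapped, and the gene was not called (-0.38 ± 0.18 (SE), adjusted p = 0.146). In cortex Mmp14 had 8.88, 6.51, 6.89 and 9.34 CPM in controls, compared with 9.73, 15.5, 18.4 and 11.1 CPM in diabetic samples. It rose there without overlap (0.79 ± 0.21 (SE), adjusted p = 0.0254), a call that was lost without control 2, control 3, diabetic 2 or diabetic 3 (adjusted p 0.0651 to 0.0726). Mmp17, a membrane-type enzyme with a lipid anchor, had 97.8, 72.4 and 88.7 CPM in control glomeruli, against 15.6, 12.8 and 16.5 CPM in diabetic ones. The 2 groups were far apart and the samples within each close together, with a fold change of -2.53 ± 0.15 (SE) (adjusted p = 0.000347). In cortex Mmp17 was not called, with 1.80 ± 0.411 and 2.23 ± 0.182 CPM (SD, n = 4 each), and the tissue difference was -2.83 ± 0.23 (SE) (adjusted p = 2.09e-06).

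The lower-level membrane types went in both directions. Mmp16 fell from 3.71, 4.15 and 6.13 CPM to 1.04, 1.60 and 1.91 CPM in glomeruli (-1.63 ± 0.33 (SE), adjusted p = 0.00974). Mmp24 rose from 0.0537, 0.0794 and 0.0890 CPM to 0.526, 0.548 and 0.262 CPM (2.52 ± 0.47 (SE), adjusted p = 0.00731), on 12 counts in controls and 78 in diabetic samples. In cortex Mmp24 had 3 counts in controls and 59 in diabetic libraries, was at 0 in diabetic 2 and was not tested. Mmp15, which like Mmp14 spans the membrane, had 20.8, 44.4 and 21.5 CPM in controls, compared with 39.2, 41.5 and 62.3 CPM in diabetic glomeruli, was highest in diabetic 3 and was not called (adjusted p = 0.137). Mmp25 was not tested in glomeruli and not called in cortex (adjusted p = 0.0715). Mmp23, a short enzyme released from a membrane-bound precursor, had 93.9, 87.4 and 89.4 CPM in controls, against 35.8, 35.3 and 34.9 CPM in diabetic glomeruli. The groups were far apart, and the fold change, with the smallest SE of the 21 called genes, was -1.35 ± 0.07 (SE) (adjusted p = 0.000328). In cortex Mmp23 stood at 4.82 ± 0.825 and 4.61 ± 0.123 CPM and was not called, and the tissue difference was -1.28 ± 0.15 (SE) (adjusted p = 4.3e-05). Mmp19, a soluble enzyme, was not called in either tissue (-1.48 in glomeruli, 1.08 in cortex), but its tissue difference was (-2.55, adjusted p = 0.0198). Mmp11, a stromelysin-like enzyme, stood at 32.9 ± 7.15 and 24.6 ± 2.45 CPM in control and diabetic glomeruli, and Mmp28, or epilysin, at 6.33 ± 1.44 and 6.85 ± 2.43 CPM (SD, n = 3 each). Neither was called in either tissue, and Mmp21 is not analysed here in glomeruli and had 3 and 5 counts in control and diabetic cortex.

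Collagenases, stromelysins and the macrophage elastase lie side by side on chromosome 9. Of the genes matching the naming rule 10 lie in the interval chr9:7272514-7699585 (GRCm38), among them Mmp1a, for which no values are analysed here. In the 250 bases before the annotated start, 7 of these 10 (Mmp13, Mmp3, Mmp10, Mmp7, Mmp20, Mmp1a and Mmp1b) held TGANTCA, the letters that AP-1 factors bind, on either strand, against 0 of 23 other genes of these families with a promoter entry and 6.87% of the 27025 genes in the table. TATAAA was likewise found in 7 of the 10, in 2 of the 23 and in 13% of all genes, and no match overlapped one to TGANTCA. Of 3 other motifs searched in the same way, CAGACA (SMAD) was found in 4 of the 10, 0 of the 23 and 17.1% of all genes, GGAATG (TEAD) in 0, 2 and 12.6%, and the NF-kB motif (GGGA and CC with any 4 bases between them) in 0, 3 and 17.3%. The last 100 bases before the start of 3 of them, whose levels are described next, and of Mmp12, which held neither TGANTCA nor TATAAA, are shown because they carry this contrast (RefSeq, GRCm38.p6, plus strand, with matches to TGANTCA and TATAAA in capitals). They lie at chr9:7502242-7502341 for Mmp10, chr9:7272414-7272513 for Mmp13, chr9:7445722-7445821 for Mmp3 and chr9:7344297-7344396 for Mmp12. Mmp7, Mmp12 and Mmp23 each had 2 annotated starts, of which only the first listed was searched. Mmp2, Mmp9 and Lox were among the genes without a promoter entry and were not searched. The 10 genes are neighbours of the same family, so their matches need not be independent. A match is a description of letters, not of binding.
Mmp10: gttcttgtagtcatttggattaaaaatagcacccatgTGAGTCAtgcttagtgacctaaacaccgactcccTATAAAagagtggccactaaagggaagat
Mmp13: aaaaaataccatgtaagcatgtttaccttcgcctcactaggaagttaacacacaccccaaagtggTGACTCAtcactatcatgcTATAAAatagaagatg
Mmp3: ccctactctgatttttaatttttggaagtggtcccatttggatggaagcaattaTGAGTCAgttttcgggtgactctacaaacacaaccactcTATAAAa
Mmp12: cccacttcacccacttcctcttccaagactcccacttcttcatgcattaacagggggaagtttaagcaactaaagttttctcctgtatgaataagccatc

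Mmp10, a stromelysin that cuts proteoglycans and activates other MMPs, had 4.06, 2.28 and 4.44 CPM in control glomeruli, compared with 22.6, 27.8 and 5.15 CPM in diabetic ones. Diabetic 1+4 and 2 were well above the controls, and diabetic 3 was just above control 3+4. Its fold change was 2.36 ± 0.61 (SE) (adjusted p = 0.0245), a call lost without control 1, 2 or 3+4 or without diabetic 1+4 or 2 (adjusted p 0.0650 to 0.0775). In cortex Mmp10 had 0 counts in controls and 20 in diabetic samples and was not tested. Mmp13, the rodent collagenase, had 0.403, 18.9 and 0.776 CPM in control glomeruli, against 4.95, 5.55 and 14.9 CPM in diabetic ones. Here control 2 was the highest sample of all, so the groups overlapped and the fold change had a wide error (0.35 ± 1.31 (SE), adjusted p = 0.856). Mmp3, another stromelysin, was also highest in control 2, with 0.134, 1.32 and 0.203 CPM in controls, compared with 0.685, 1.12 and 0.572 CPM in diabetic glomeruli, and was not called (adjusted p = 0.639). Mmp12, the elastase of macrophages, had 8.95, 66.8 and 10.2 CPM in controls, against 6.77, 6.62 and 12.9 CPM in diabetic glomeruli (adjusted p = 0.146). Control 2 was thus the highest control for Mmp12, Mmp13, Mmp3 and Mmp8 and the lowest for Mmp10, which the plot of chromosome 9 genes by sample shows. Exons of Mmp12 and Mmp1b overlap on opposite strands, and whether counting used strand is not given in the sources used here.

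**Figure D2:**
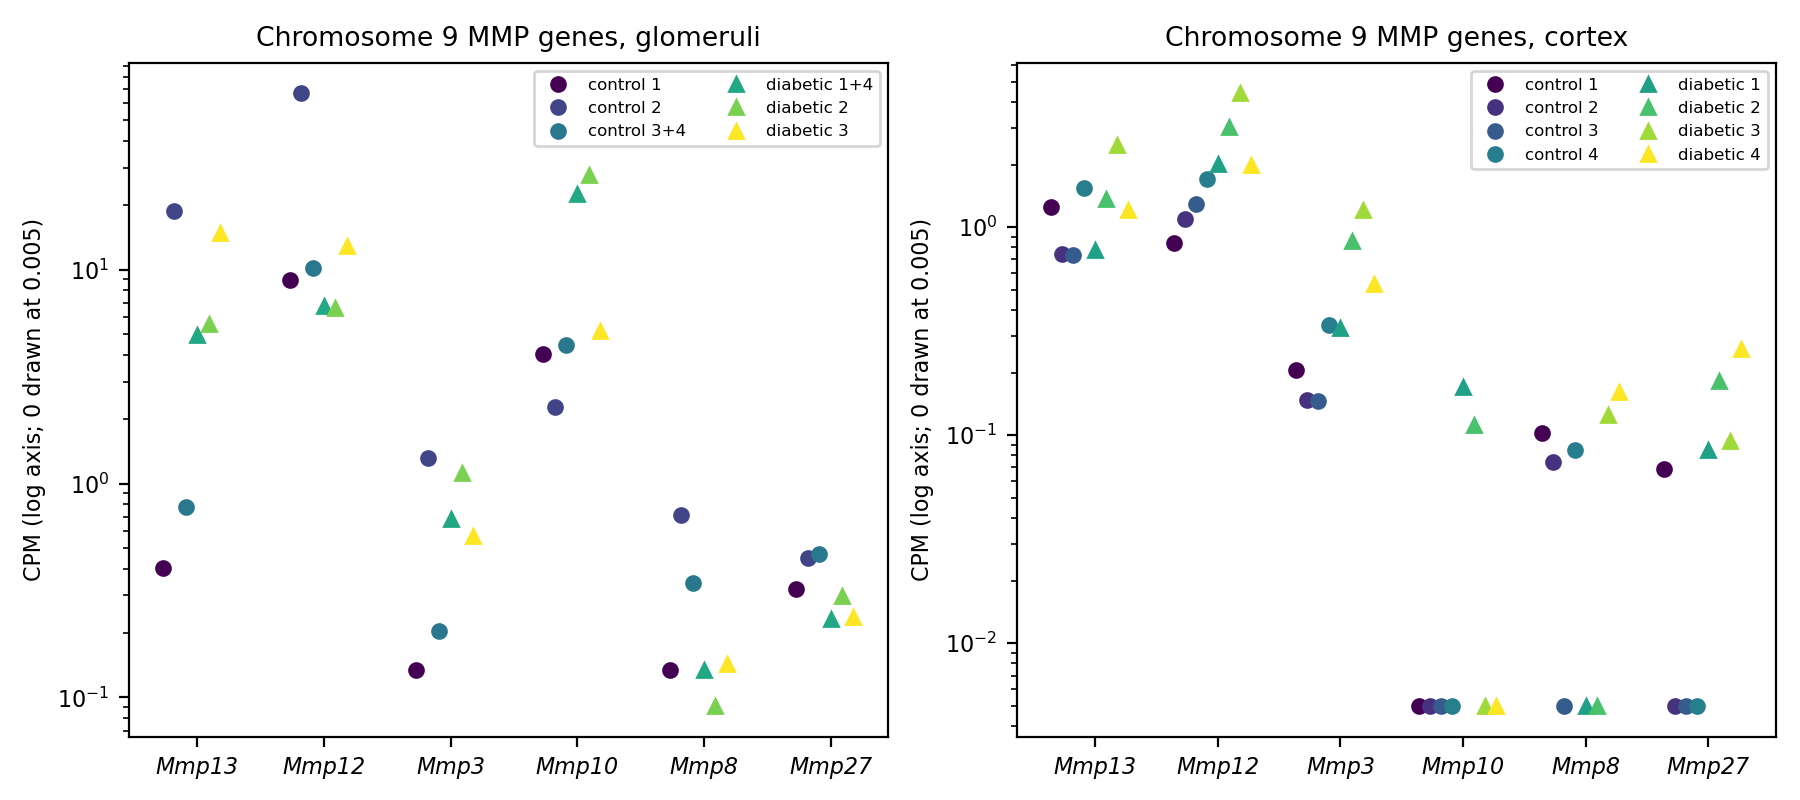
CPM (log axis, 0 drawn at 0.005) of 6 chromosome 9 MMP genes in each glomerular sample (left) and cortex library (right), circles for controls and triangles for diabetic samples. In glomeruli control 2 lies above the other controls for Mmp13, Mmp12, Mmp3 and Mmp8 and below them for Mmp10.

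In cortex the same genes were low, and 2 of them rose. Mmp12 had 0.840, 1.09, 1.29 and 1.70 CPM in controls, compared with 2.01, 3.01, 4.40 and 1.99 CPM in diabetic cortex. All diabetic libraries lay above all controls (1.21 ± 0.32 (SE), adjusted p = 0.023). Mmp3 had 0.206, 0.148, 0.146 and 0.339 CPM in controls, against 0.326, 0.855, 1.21 and 0.534 CPM in diabetic cortex (1.78 ± 0.50 (SE), adjusted p = 0.0298). Diabetic 1 lay just below control 4, so these groups overlapped although the gene was called. The Mmp3 call held only without control 4 or diabetic 1, with adjusted p-values of 0.05001 to 0.102 without the others, and the Mmp12 call held only without control 4, diabetic 1 or diabetic 4, with 0.0503 to 0.0699 without the others. The tissue difference was called for Mmp12 (-2.89 ± 0.89 (SE), adjusted p = 0.0236) and Mmp27 (-3.81 ± 1.18 (SE), adjusted p = 0.0239). Without control glomerular sample 2 the difference of Mmp12 was -1.36 (adjusted p = 0.0570), and it was also lost without diabetic glomerular 1+4 (-2.75, adjusted p = 0.0540). Mmp27 rests on few counts: in cortex, where it was not tested, it had 4 counts in controls, all in control 1, and 41 in diabetic libraries. Its difference was -7.07 without cortex control 1 (adjusted p = 0.00152) and -3.39 to -7.07 over all alternatives. The Mmp27 difference was lost without control 3+4, diabetic 1+4 or diabetic 3 of the glomeruli (adjusted p 0.0520 to 0.0610). The tooth enamel protease Mmp20 had 0 counts in control glomeruli and 30 in diabetic ones. That was at least 9.18-fold higher when the floor is set at 3 counts for the whole control group. Mmp7, or matrilysin, had 0 and 6 counts, and neither Mmp20 nor Mmp7 was tested.

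Of the inhibitors, Timp2 and Timp3 fell in glomeruli and none of the 4 was called in cortex. Timp2, which also takes part in pro-MMP2 activation with Mmp14, had 991, 849 and 952 CPM in control glomeruli, compared with 359, 391 and 499.8 CPM in diabetic ones. The groups were clearly apart (-1.16 ± 0.15 (SE), adjusted p = 0.00198), with the call held without any 1 sample. In cortex Timp2 had 48.5, 38.1, 50.1 and 71.1 CPM in controls, against 50.1, 53.9, 60.3 and 46.8 CPM in diabetic libraries. These values overlapped throughout (0.02 ± 0.17 (SE)), and the tissue difference was -1.18 ± 0.25 (SE) (adjusted p = 0.00309).

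Timp3, which is bound to the matrix, had 3275, 1146 and 2711 CPM in control glomeruli, compared with 959, 870.1 and 675 CPM in diabetic ones. Control 2 was closer to the diabetic samples than to the other controls, but the groups did not overlap. The fold change was -1.51 ± 0.38 (SE) (adjusted p = 0.0218) and became -1.85 without control 2 (adjusted p = 0.0016). The call was lost without any other single sample (control 1, control 3+4, diabetic 1+4, 2 or 3; adjusted p 0.0564 to 0.0693). In cortex Timp3 had 2495, 2041, 2064 and 1301 CPM in controls, against 1617, 1415, 1489 and 1792 CPM in diabetic libraries. Control 4 was the lowest of all 8, and the gene was not called (-0.32 ± 0.17 (SE), adjusted p = 0.226), whereas without control 4 it was lower in diabetic cortex (-0.48, adjusted p = 0.00615). The tissue difference of -1.19 ± 0.43 (SE) (adjusted p = 0.0449) was called only with all samples or without glomerular control 2 or cortex control 1, with adjusted p-values of 0.0501 to 0.137 otherwise. Exons of Timp3 overlap those of Syn3 on the other strand.

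Timp1, the inducible inhibitor of most MMPs, had 139, 230.4 and 128 CPM in control glomeruli, compared with 83.8, 99.2 and 182 CPM in diabetic ones. The groups overlapped, with control 2 and diabetic 3 highest, and the gene was not called (-0.45 ± 0.35 (SE), adjusted p = 0.347). In cortex it had 0.240, 0.204, 0.747 and 0.424 CPM in controls, against 0.467, 2.47, 2.88 and 0.745 CPM in diabetic libraries. Diabetic 2 and 3 were highest, diabetic 1 and 4 were below control 3, and the fold change of 2.00 ± 0.64 (SE) missed the threshold (adjusted p = 0.0522). It passed without control 3 (2.48, adjusted p = 0.0421) or diabetic 1 (2.31, adjusted p = 0.0230) and with DESeq2 (2.02, adjusted p = 0.00712). The tissue difference was -2.41 ± 0.81 (SE) (adjusted p = 0.0349) and was lost without glomerular control 2, diabetic 1+4 or diabetic 2, or cortex control 1, 2 or 4 or diabetic 2 or 3 (adjusted p 0.0556 to 0.0762). Timp4 was almost silent, with 1 count in control and 4 in diabetic glomeruli. In cortex it had 0.120, 0, 1.48 and 0.226 CPM in controls, control 3 standing above the rest, compared with 0.16999, 0.112, 0.454 and 0 CPM in diabetic libraries.

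**Figure D3:**
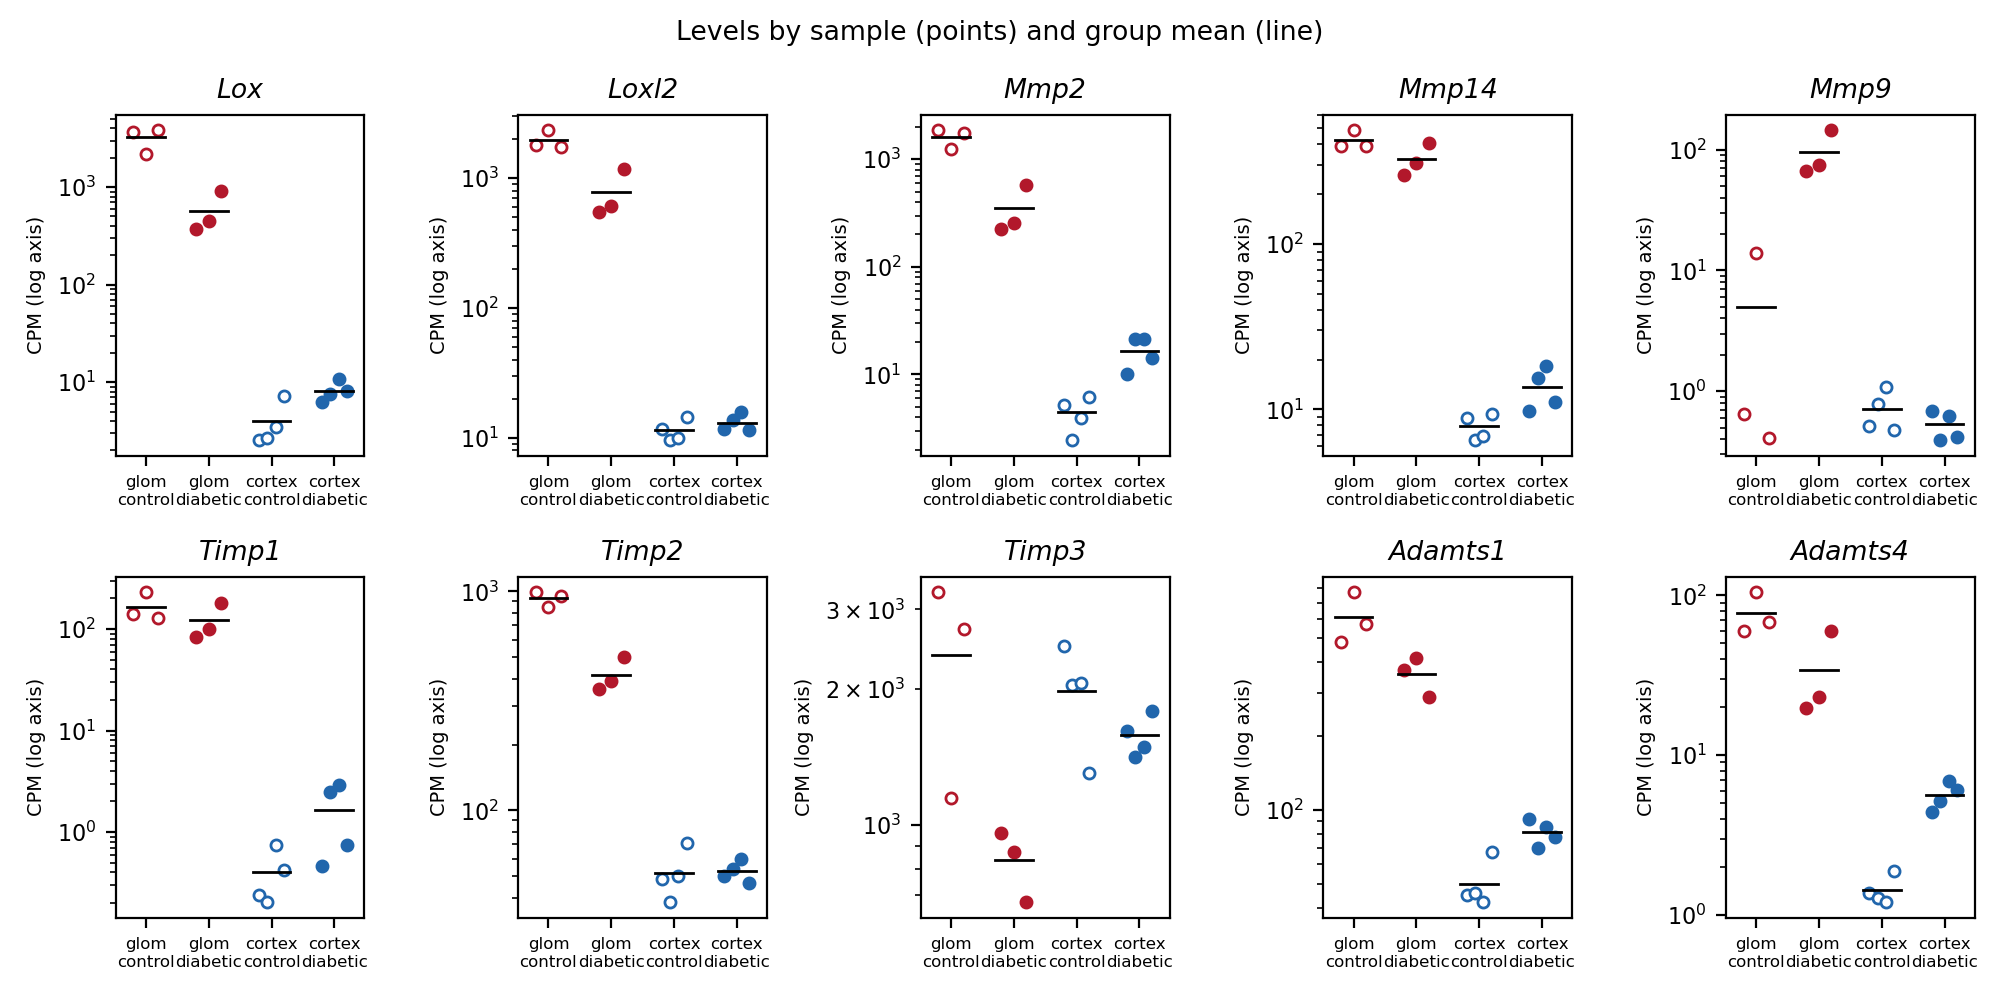
CPM (log axis) of 10 named genes in each sample (points) with the group mean (line), for control (open) and diabetic (filled) glomeruli in red and cortex in blue. Lox, Loxl2, Mmp2, Timp2, Timp3, Adamts1 and Adamts4 are lower in diabetic glomeruli without overlap, though Adamts4 was not called, and Mmp9 is higher. Adamts1, Adamts4, Mmp2 and Mmp14 are higher in diabetic cortex without overlap.

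Among ADAMTS genes of the proteoglycan-cutting group, Adamts1 and Adamts5 were the most abundant in glomeruli and both fell. Adamts1 had 485, 772 and 571 CPM in controls, against 371, 416 and 288 CPM in diabetic glomeruli. Its groups did not overlap, and the fold change was -0.77 ± 0.21 (SE) (adjusted p = 0.0296), a call that held only without control 1 or diabetic 2 and was lost without the other 4 samples (adjusted p 0.0589 to 0.0881). In cortex Adamts1 had 45.1, 46.0, 42.04 and 67.1 CPM in controls, compared with 92.1, 69.6, 85.3 and 77.4 CPM in diabetic libraries. It rose there (0.70 ± 0.15 (SE), adjusted p = 0.0119) with control 4 standing above the other controls, and the tissue difference was -1.45 ± 0.26 (SE) (adjusted p = 0.00104). Adamts5, a neighbour of Adamts1 on chromosome 16, had 326, 414 and 383 CPM in control glomeruli, against 248, 263 and 179 CPM in diabetic ones. It fell in glomeruli (-0.70 ± 0.17 (SE), adjusted p = 0.0183), a call lost without control 3+4 or diabetic 1+4 (adjusted p 0.0531 to 0.0556). Cortex levels were 23.4, 17.4, 16.7 and 15.0 CPM in controls, compared with 10.5, 13.7, 14.2 and 12.8 CPM in diabetic libraries. The cortex fall (-0.50 ± 0.15 (SE), adjusted p = 0.0352) was lost without control 1, 2 or 3 or any diabetic library (adjusted p 0.0537 to 0.0848). Adamts5 was thus the 1 gene lower in both tissues, and its tissue difference was not called (-0.19, adjusted p = 0.557).

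Adamts4, the inducible aggrecanase, gave a strong contrast between tissues. It had 60.0, 105 and 67.8 CPM in control glomeruli, against 19.7, 23.1 and 59.7 CPM in diabetic ones. Diabetic 3 nearly reached control 1, and the fold change was not called (-1.18 ± 0.45 (SE), adjusted p = 0.0817). In cortex it had 1.37, 1.28, 1.20 and 1.89 CPM in controls, compared with 4.42, 5.17, 6.90 and 6.02 CPM in diabetic libraries. It rose 3.91-fold (1.97 ± 0.21 (SE), adjusted p = 0.000499), a call held without any 1 library, and the tissue difference was -3.14 ± 0.50 (SE) (adjusted p = 0.000513). Adamts8, of the same group, fell in glomeruli from 16.6, 13.8 and 17.6 CPM to 5.69, 7.03 and 7.39 CPM (-1.26 ± 0.16 (SE), adjusted p = 0.00196) and had 0.387 ± 0.193 and 0.231 ± 0.211 CPM in cortex. Adamts9 was not called in glomeruli (-0.37), cortex (-0.34) or the difference (-0.03).

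Adamts2, which removes the amino-terminal propeptide of fibrillar procollagens, had 7.04, 9.52 and 9.78 CPM in control glomeruli, against 2.61, 2.15 and 4.72 CPM in diabetic ones. It fell in glomeruli (-1.48 ± 0.33 (SE), adjusted p = 0.0141), a call lost without diabetic 1+4 (-1.33, adjusted p = 0.0588). Cortex levels were 3.81, 3.59, 4.26 and 5.92 CPM in controls, compared with 6.05, 7.30, 8.86 and 6.38 CPM in diabetic libraries. It rose there (0.70 ± 0.19 (SE), adjusted p = 0.0277), a call that held only without control 4 or diabetic 1 and had adjusted p-values of 0.0501 to 0.0854 without the others, and the tissue difference was -2.18 ± 0.38 (SE) (adjusted p = 0.000816). Its relatives Adamts3 and Adamts14 were not called in either tissue.

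Adamts10, which acts on fibrillin microfibrils, had 67.6, 57.2 and 66.9 CPM in control glomeruli, against 19.6, 18.1 and 19.8 CPM in diabetic ones. The samples of each group were close together, and the fold change was -1.74 ± 0.10 (SE) (adjusted p = 0.000328). In cortex it stood at 18.4 ± 2.36 and 19.1 ± 0.936 CPM, with a tissue difference of -1.79 ± 0.15 (SE) (adjusted p = 2.18e-06). Its relative Adamts6 was not called in glomeruli (-0.03) or cortex (0.60, adjusted p = 0.0526). Adamts12, which cuts cartilage oligomeric matrix protein, had 68.0, 119 and 143 CPM in control glomeruli, compared with 16.0, 16.4 and 32.8 CPM in diabetic ones (-2.34 ± 0.39 (SE), adjusted p = 0.00486). All diabetic samples were far below control 1, the lowest control. In cortex Adamts12 had 1.37 ± 0.681 and 1.12 ± 0.392 CPM, and its tissue difference was -2.04 ± 0.59 (SE) (adjusted p = 0.0179). Adamts16 fell from 46.7, 59.2 and 52.7 CPM to 19.0, 19.1 and 30.6 CPM (-1.21 ± 0.21 (SE), adjusted p = 0.00573), stood at 3.87 ± 0.859 and 4.10 ± 0.464 CPM in cortex and had a tissue difference of -1.28 (adjusted p = 0.00393). Of the remaining ADAMTS genes none was called in either tissue: Adamts7, another enzyme that cuts cartilage oligomeric matrix protein, stood at 30.6 ± 15.6 and 25.9 ± 3.62 CPM in control and diabetic glomeruli, and Adamts15 at 21.1 ± 3.20 and 20.8 ± 4.86 CPM in control and diabetic cortex. Adamts17 was not called in glomeruli and not tested in cortex, and Adamts13, the protease of von Willebrand factor, had 46 and 18 counts in control and diabetic cortex. Adamts18 in glomeruli and Adamts19 and Adamts20 in both tissues had too few counts to be tested, with at most 28 in any group.

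Lox, the founding member of the lysyl oxidases, had 3694, 2191 and 3834 CPM in control glomeruli, against 371, 445 and 910.4 CPM in diabetic ones. The highest diabetic sample, diabetic 3, was far below the lowest control, control 2. It fell 5.63-fold (-2.49 ± 0.40 (SE), adjusted p = 0.00456), and the call held without any 1 sample. In cortex Lox had 2.54, 2.65, 3.47 and 7.22 CPM in controls, compared with 6.19, 7.58, 10.9 and 8.13 CPM in diabetic libraries. Control 4 lay above diabetic 1, and the fold change of 1.04 ± 0.34 (SE) missed the threshold (adjusted p = 0.0573). Without control 4 it was 1.504 (adjusted p = 0.000955), and with DESeq2 1.04 (adjusted p = 0.00727). The tissue difference was -3.54 ± 0.58 (SE) (adjusted p = 0.000618).

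Loxl2, which also crosslinks type IV collagen, had 1812, 2347 and 1742 CPM in control glomeruli, against 551, 613 and 1172 CPM in diabetic ones. Diabetic 3 again stood above the other diabetic samples and below the controls. The fold change was -1.34 ± 0.31 (SE) (adjusted p = 0.0164), lost without diabetic 1+4 or diabetic 2 (adjusted p 0.0525 to 0.0570). In cortex Loxl2 was not called (11.4 ± 2.21 and 13.1 ± 2.00 CPM, adjusted p = 0.401), and the tissue difference was -1.53 ± 0.34 (SE) (adjusted p = 0.00394). Loxl1, needed for elastic fibres, had 816, 641 and 758 CPM in control glomeruli, compared with 179, 208 and 429 CPM in diabetic ones. The 3 diabetic samples were below all controls (-1.44 ± 0.34 (SE), adjusted p = 0.0167), a call lost without control 1, control 3+4 or diabetic 2 (adjusted p 0.0509 to 0.0580). In cortex Loxl1 had 16.5, 12.5, 15.1 and 14.2 CPM in controls, against 22.4, 26.6, 28.5 and 25.5 CPM in diabetic libraries. Every diabetic library lay above every control (0.82 ± 0.10 (SE), adjusted p = 0.00104), a call held without any 1 library, and the tissue difference was -2.26 ± 0.34 (SE) (adjusted p = 0.000312).

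Loxl3 followed Loxl1 in direction at a lower level. It had 28.7, 30.4 and 28.4 CPM in control glomeruli, compared with 10.7, 10.6 and 16.0 CPM in diabetic ones (-1.23 ± 0.18 (SE), adjusted p = 0.00287). Cortex levels were 3.87, 3.05, 3.92 and 4.56 CPM in controls, against 5.21, 5.90, 6.94 and 5.12 CPM in diabetic libraries (0.59 ± 0.17 (SE), adjusted p = 0.0318). The groups did not overlap in either tissue, but the cortex call held only without control 4 or diabetic 1 (adjusted p 0.0507 to 0.0960 without the others). Its tissue difference was -1.81 ± 0.24 (SE) (adjusted p = 0.000116), and its exons overlap those of Htra2 on the other strand. Loxl4 alone of the 5 rose in glomeruli, from 13.7, 20.1 and 15.2 CPM to 34.4, 40.2 and 22.5 CPM (0.99 ± 0.24 (SE), adjusted p = 0.0203). Diabetic 3 was close to control 2, and the call was lost without control 1, control 3+4, diabetic 1+4 or diabetic 2 (adjusted p 0.0580 to 0.0757). In cortex Loxl4 had 1.54, 1.54, 4.76 and 2.29 CPM in controls, compared with 3.14, 5.02, 3.82 and 4.90 CPM in diabetic libraries. Control 3 exceeded 2 diabetic libraries, and the gene was not called (0.73, adjusted p = 0.186), though without control 3 it passed (1.23, adjusted p = 0.0124). That library also held adipocyte markers at a summed 105 CPM, against 0.241 CPM or less in the other cortex controls, and their part was not tested.

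The make-up of the families by FPKM changed along with their sums. Mmp2 made up 70.7% of the MMP sum in control glomeruli (62.5% to 75.3%) and 37.7% in diabetic ones (32.8% to 47.4%). Mmp14 went from 15.9% to 31.2% and Mmp9 to 8.78%, while Mmp10 held 6.11% and 6.63% of the sum in diabetic 1+4 and 2 and 0.777% in diabetic 3. Lox went from 53.6% to 34.5% of the lysyl oxidase sum and Loxl2 from 27.7% to 39.0%, so that Loxl2 was ahead of Lox in each of the 3 diabetic samples. Timp3 made up 51.3% of the TIMP sum in controls and 42.3% in diabetic glomeruli, with control 2 at 33.2% and diabetic 3 at 29.6% and the groups overlapping. Diabetic glomeruli summed to 364 ± 160.5 FPKM for the lysyl oxidases, 296 ± 89.0 for the MMPs, 458 ± 41.97 for the TIMPs and 135 ± 14.1 for the ADAMTS genes (SD, n = 3). In diabetic cortex Mmp2 made up 33.1% of the MMP sum against 13.9% in control cortex, and Loxl1 55.1% against 50.6% of the lysyl oxidase sum.

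**Figure D4:**
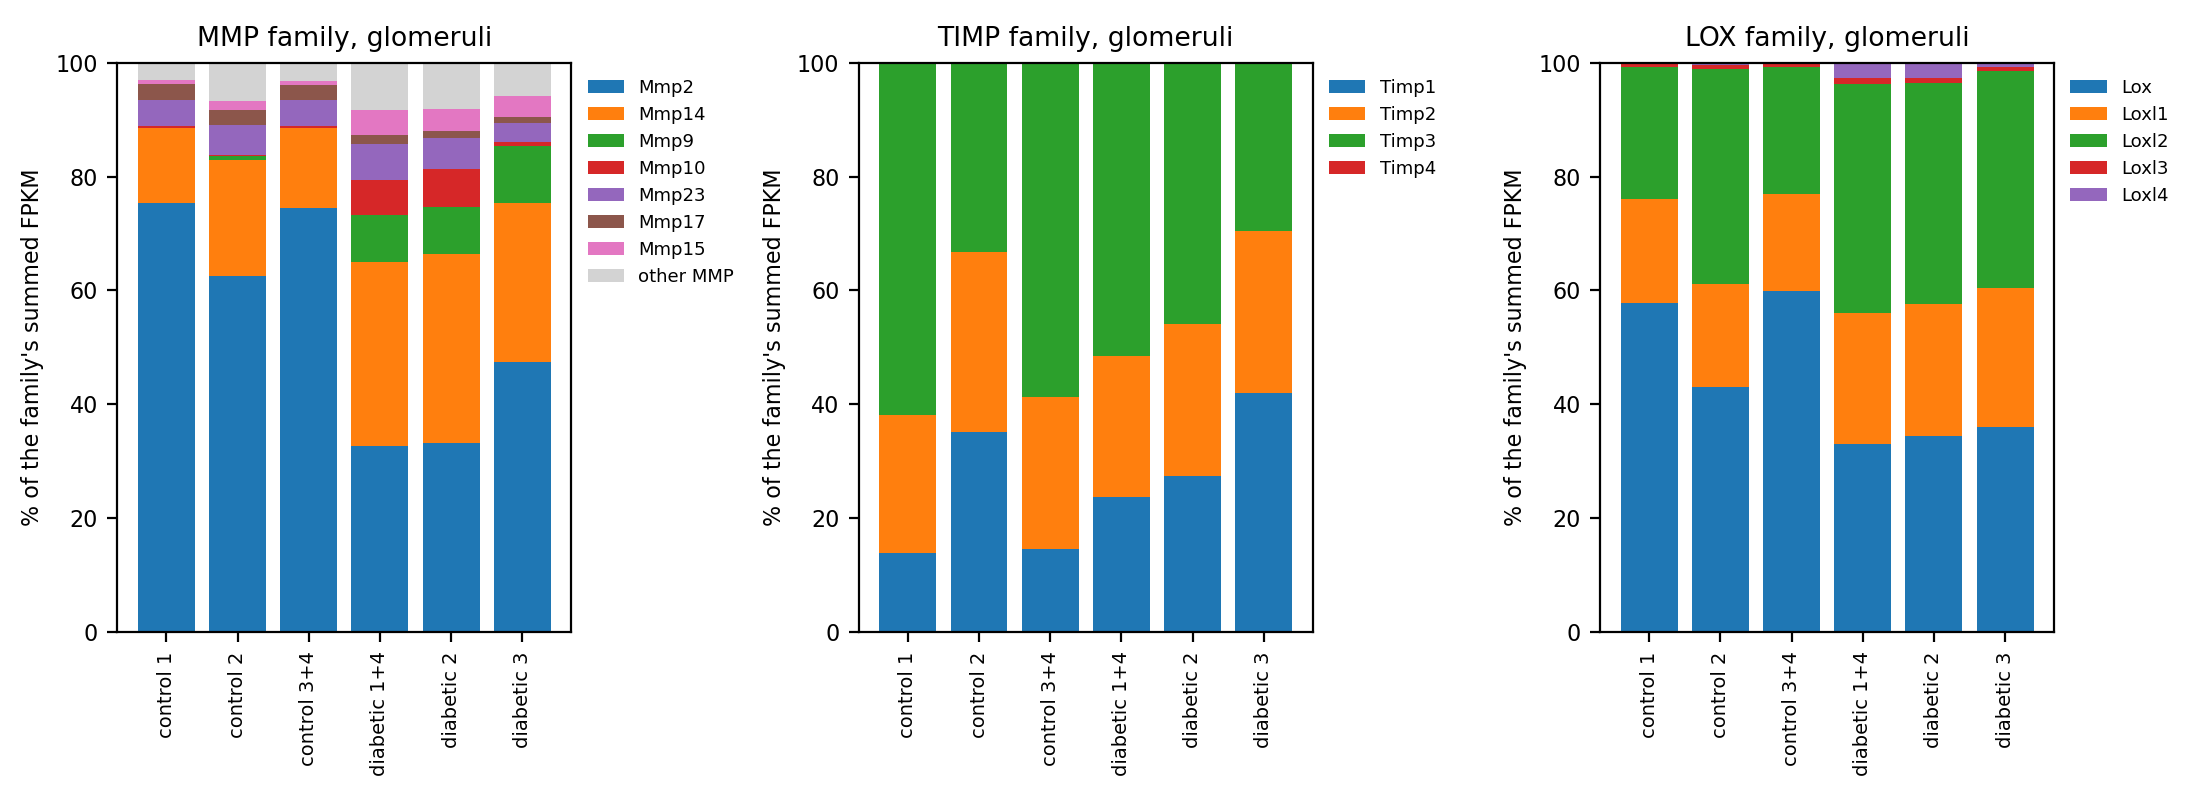
Share of each gene (colours) in its family's summed FPKM (y axis, %) in each glomerular sample (x axis), for the MMP, TIMP and lysyl oxidase families. Mmp2 holds 62.5% to 75.3% of the MMP sum in controls and 32.8% to 47.4% in diabetic samples, and Lox gives way to Loxl2 as the leading lysyl oxidase.

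Put as a test of the difference between tissues, the diabetic effect was lower in glomeruli than in cortex for 20 of 42 genes and higher for 1, Mmp9. Over all 16305 joined genes 35.0% were called, 16.3% lower and 18.8% higher. With library totals the share of all such calls that were higher went from 53.6% to 69.0%, and 19 of these genes were lower and 1 higher. The median difference was -1.25 over these genes and 0.04 over all. For 5 genes the calls went in opposite directions, lower in glomeruli and higher in cortex: Adamts1, Adamts2, Loxl1, Loxl3 and Mmp2. All 5 also passed the test of the difference itself, but only Mmp2 kept both of its calls with each sample left out. Another 4 rose in cortex and were not called in glomeruli (Adamts4, Mmp3, Mmp12 and Mmp14), and of these all but Mmp3 had a called difference. A further 10 fell in glomeruli without a call in cortex. How many of all joined genes had such pairs of calls was not counted.

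Genes around these enzymes were taken from lists of the same pathway. Of all 15238 tested glomerular genes 18.2% were called lower and 19.4% higher. In glomeruli 12 of 17 basement membrane collagens and laminins fell and 2 rose: Col4a2 went from 3582 ± 283 to 1065 ± 204 CPM and Col4a1 from 4688 ± 528 to 1685 ± 348 CPM (SD, n = 3), while the heparan sulfate proteoglycan gene Agrn rose from 271 ± 16.0 to 1087 ± 185 CPM. Lysyl oxidase substrates and elastic fibre genes fell in 8 of 18 cases and rose in 1, with Col5a2 going from 1617 ± 58.4 to 501 ± 83.2 CPM, Fbln5 from 150.0 ± 56.6 to 31.3 ± 1.74 CPM and Ltbp1, which holds latent TGF-beta, upward from 28.3 ± 1.77 to 150.4 ± 11.2 CPM. Collagen-modifying enzymes fell in 9 of 14 cases and rose in 1, among them the lysyl hydroxylase Plod2 (1458 ± 281 to 460.1 ± 137 CPM). Of ADAMTS substrates 3 of 9 fell, the proteoglycans Bgn (1227 ± 202 to 222 ± 64.8 CPM) and Dcn (9.78 ± 2.25 to 0.825 ± 0.197 CPM) and fibrillin-1, Fbn1 (682 ± 32.8 to 167 ± 95.4 CPM). Median log2 fold changes of these 4 lists were -0.95, -0.86, -0.68 and -1.01, against 0.01 over all genes. Cathepsins and cystatins fell in 7 of 14 cases and rose in 0, with Ctsl going from 1632 ± 60.3 to 808 ± 142 CPM and the collagen-cutting Ctsk from 12.2 ± 0.780 to 3.11 ± 0.294 CPM.

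Other proteolytic systems had calls in both directions in glomeruli, where 19.4% of all genes were called higher and 18.2% lower. Plasminogen system genes rose in 4 and fell in 4 of 12 cases, with the urokinase gene Plau going from 148 ± 7.36 to 835 ± 299 CPM. Other protease inhibitors rose in 5 and fell in 3 of 11 cases, with the membrane-anchored MMP inhibitor Reck going from 37.6 ± 7.05 to 12.0 ± 1.49 CPM and the epithelial inhibitor Spint2 from 36.6 ± 3.44 to 341 ± 82.1 CPM. ADAM sheddases and their regulators rose in 2 and fell in 5 of 12 cases, with Adam12 rising from 49.3 ± 13.8 to 222 ± 15.9 CPM. Astacin proteases with their enhancers rose in 2 and fell in 2 of 5 cases, and ADAMTS-like genes rose in 1 and fell in 2 of 7, with Adamtsl4 going from 90.3 ± 7.58 to 21.1 ± 2.74 CPM. Epithelial genes among the risen ones, Spint2 and the serine protease Hpn, moved with the tubule markers given above, and the part of those markers was not tested.

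In cortex, where 20.1% of all genes were called, 10.8% higher and 9.29% lower, genes of the same lists were called in both directions. Basement membrane genes rose in 3 and fell in 1 of 17 cases, with Col4a1 going from 211 ± 13.3 to 295 ± 29.8 CPM (SD, n = 4). Plasminogen system genes rose in 4 and fell in 1 of 15 cases, among them Serpine2 (11.6 ± 3.41 to 31.4 ± 5.24 CPM) and S100a10 (34.8 ± 4.52 to 87.3 ± 7.98 CPM). Cathepsins and cystatins rose in 6 and fell in 1 of 13 cases, with the macrophage cathepsin Ctss going from 9.87 ± 1.21 to 29.7 ± 6.08 CPM alongside the myeloid markers given above, whose part was not tested. Collagen-modifying enzymes rose in 4 and fell in 0 of 13 cases, lysyl oxidase substrates rose in 3 and fell in 3 of 19, and ADAMTS substrates rose in 0 and fell in 1 of 10. ADAM genes rose in 4 and fell in 2 of 12 cases, other inhibitors rose in 3 and fell in 1 of 13, astacin genes rose in 1 and fell in 1 of 6, and ADAMTS-like genes rose in 2 and fell in 0 of 7. Of the procollagen processing proteases, Bmp1 rose from 10.9 ± 2.69 to 17.3 ± 3.44 CPM.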

How the data were processed

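The labels' protocols name a SMARTER mRNA-Seq kit for all 8 glomerular and 8 cortex libraries and do not state whether strand was kept. The authors deposited a table of read counts and FPKM for glomeruli, whole numbers as deposited, and a table for cortex whose values look like estimated counts: the authors deposited whole numbers there, but the ratio of count to FPKM varied within a gene between libraries by a median of 7.61% in low genes, against 7.82e-07% in glomeruli. The deposited FPKM values were used as given by the authors. Builds named in the submitters' processing notes are GRCm38 and mm10, and for aligner, counter and annotation nothing is given in the sources used here.

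Tests across genes used edgeR's quasi-likelihood test (edgeR 4.0.16 in R 4.3.3) with TMM scaling, filterByExpr and robust fits, on counts of 3 against 3 glomerular samples, after close pairs of libraries were summed, and 4 against 4 cortex libraries. A pair was called close when its chi-square per gene was more than 5 times below that of every other pair of its group. P-values were Benjamini-Hochberg adjusted over all genes tested, with a threshold of 0.05. The difference between tissues was the interaction term over the 18796 genes named in both tables. The fold of Mmp20, at 0 in control glomeruli, was given as a bound, with 3 counts for the whole group as the floor. Alternatives were RLE factors, library totals, other filters, DESeq2 1.42.0, limma 3.58.1 on log2(FPKM + 1) and log2(FPKM + 0.1) for genes at 0.5 FPKM or more in 3 libraries, separate libraries, a replicate block and each sample left out. Same-numbered libraries of control and diabetic groups had correlations of -0.08 to 0.14 in glomeruli and -0.26 to 0.03 in cortex, so the numbers were not taken to pair them. The tests were checked on simulated data: with 15096 genes, 88 of 100 genes changed by 2 on the log2 scale and 62 of 100 changed by 1 were recovered in the glomerular design. For the difference between tissues 96 of 100 and 48 of 100 were recovered. The changed genes all had a mean above 1 CPM, and far fewer genes changed than were called in the real data. These rates therefore need not hold for the real data or for genes of low counts.

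Gene positions were taken from GENCODE M21 on GRCm38 and promoters from a RefSeq table on GRCm38.p6, which held 33 of the genes. Named were all TIMP and lysyl oxidase genes, every other gene called in glomeruli, in cortex or in the difference, and up to 4 genes of smallest adjusted p in each pathway list. Other genes named were chosen after their values were seen. The genes, the lists, the summed pairs and the use of diabetic sample 2 alone were chosen with earlier results of these data known.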

Additional observations from a re-analysis of the deposited data

Results flagged for a closer look

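Single libraries stood apart from the other 3 of their group in 5 of 72 groups of 4 cortex libraries examined, by the gap to the nearest library as a share of the group's range, where chance gives about 1 in 20. Control 4 had Adamts1 at 67.1 CPM, against 42.04 to 46.0 CPM in the other controls, and Adamts9 at 26.0 CPM, against 19.2 to 20.1 CPM. Control 1 had Adamts6 at 3.60 CPM, against 6.65 to 7.05 CPM. Diabetic 4 had Mmp28 at 1.89 CPM, against 2.91 to 2.95 CPM. Control 3 had Timp4 at 1.48 CPM, against 0 to 0.226 CPM.

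The diabetic effect differed between glomeruli and cortex for 21 genes by the interaction test. The log2 differences below 0, where the effect was lower in glomeruli, were -4.10 for Mmp2, -3.81 for Mmp27 (on 4 counts in control cortex, -7.07 without its control 1), -2.89 for Mmp12, -2.83 for Mmp17, -2.55 for Mmp19, -1.28 for Mmp23 and -1.16 for Mmp14 among the MMPs. Among the lysyl oxidases they were -3.54 for Lox, -2.26 for Loxl1, -1.81 for Loxl3 and -1.53 for Loxl2, and among the inhibitors -2.41 for Timp1, -1.19 for Timp3 and -1.18 for Timp2. Among the ADAMTS genes they were -3.14 for Adamts4, -2.18 for Adamts2, -2.04 for Adamts12, -1.79 for Adamts10, -1.45 for Adamts1 and -1.28 for Adamts16. Only Mmp9 had a called difference above 0, at 4.74.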

How the results depend on the processing

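Over all alternatives 11 of 22 results in glomeruli, 5 of 17 in cortex, 18 of 23 differences and 31 of 37 tissue contrasts kept their direction and side of the threshold. Counts of higher genes in glomeruli were 1 to 6 with each sample left out, and of lower genes 12 to 18. Over all genes these fits called 2076 to 2721 higher and 1728 to 2516 lower, against 2950 and 2767 with every sample. In cortex 14 genes were higher with DESeq2, 4 with log2(FPKM + 1) and no filter, and 4 to 12 with each library left out. Over all genes 2613, 1614 and 1420 to 2474 were higher in the same cortex fits, against 2069 in the main one. The count of lower cortex genes was 0 with library totals, with all 3 FPKM settings and with the replicate block, and 0 to 2 with each library left out. Lower calls over all genes were 787 to 1337 in the settings with 0, and 1090 to 2241 with each library left out, against 1787. With each sample left out, differences called higher numbered 1 to 3 and lower 16 to 19, and tissue contrasts 29 to 33 and 2 to 4. Over all genes the differences numbered 2414 to 3031 and 2214 to 2733, and the tissue contrasts 6085 to 6363 and 6135 to 6470. Of all glomerular calls 69.2% to 72.2% were higher in the FPKM settings. The cause of these shifts was not tested.

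With the replicate block 6 cortex genes were higher and 0 lower, and with separate glomerular libraries and the replicate block 6 were higher and 20 lower. Over all genes these fits called 1389 higher and 986 lower of 19228 in cortex, and 3596 higher and 3396 lower of 15182 in glomeruli.

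Signs turned for values that were not called: the cortex change of Timp2 (-0.00837, -0.05 and -0.10 without control 1, diabetic 3 and control 2, range -0.10 to 0.21), that of Timp4 (0.63 without control 3, range -2.24 to 0.63) and the difference of Loxl4 (-0.24 without cortex control 3, range -0.24 to 0.45). Tissue contrasts turned for Timp3 (0.00348 with no filter, 0.10 without cortex control 1, range -0.30 to 0.34), and, for called values, Mmp13 (-1.07 without glomerular control 2, range -1.07 to 2.86) and Mmp9 (-0.77 without it, range -0.77 to 3.03). In simulated data at 3 against 3, changes of 1 on the log2 scale were recovered less often than those of 2.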
